A study of Mus musculus with 4 samples.

Results

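The genes described here are oncomodulin (*Ocm*), the other calcium-binding buffer proteins of the cochlea (*Pvalb*, *Calb1*, *Calb2*, *S100a1* and *S100b*) and the plasma membrane calcium pump of hair bundles (*Atp2b2*). They were chosen by name, as every probe other than a control whose gene name on the array was one of these 7, which gave 12 of the 39429 probes and 7 of the 29971 gene names on the array. All 7 genes were measured. *Ocm*, *Pvalb*, *Calb1*, *S100a1* and *Atp2b2* had a pair of probes each, and *Calb2* and *S100b* had 1 each.

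Calcium enters hair cells through their mechanotransduction and voltage-gated channels and is bound within the cell by EF-hand proteins, in which a loop between a pair of helices holds the ion. It is then pumped out across the membrane. In the adult cochlea, oncomodulin is known mainly from outer hair cells (OHCs), whereas parvalbumin and calretinin are also known from inner hair cells (IHCs) and spiral ganglion neurons, and S100B from Schwann cells and other glia.

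The study depleted OHCs with diphtheria toxin (DT). OHC-TRECK mice, called *Prestin*-*hDTR* mice below, carried the human DT receptor under the promoter of prestin (*Slc26a5*), the motor protein of OHCs, so that DT should act on cells in which this promoter is active. The line came from a single founder, whose own effects cannot be told apart from those of the receptor. Cochlear RNA of 4 groups was hybridised with a single dye, Cy3, to 1 array each. These were wild-type mice without (DT- WT) and with the toxin (DT+ WT), and *Prestin*-*hDTR* mice without (DT- *hDTR*) and with it (DT+ *hDTR*, also called the depleted cochlea below). All mice were of the B6J background and 5 weeks old, and the DT-treated groups had received 50 μg/kg of DT 7 days earlier. The labels give pooled males and females, and the design text gives 8, of which 4 were females and 4 males. The untreated groups are labelled as having had no treatment, so injection itself and DT cannot be told apart. With 1 array in each group there was no measure of the spread between mice, and no test was made. The ± values below are the error that the array software gives to a signal, which covers the spot and not the animals.

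Each signal below is the intensity of a probe divided by the 75th percentile of all probes on its array, so that a value of 1 is this percentile. Differences between arrays are given on the log2 scale or as folds, and a difference of 2-fold or more was counted as a change. For a gene with several probes, the brighter one is given unless the other is named. Levels of different probes are not compared, since probes bind with different strength. The arrays were alike in quality, with 62.3 to 70.6% of probes well above background, 0 saturated spots and a median spread between repeated spots of 0.06 to 0.07 on the log2 scale.

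The labelled tissue and the depletion were checked with markers. The summed signal of 6 OHC markers was 4.40 on the DT- WT, 4.50 on the DT+ WT and 4.68 on the DT- *hDTR* array, against 1.78 on the DT+ *hDTR* array. *Strc*, *Chrna9* and *Chrna10* fell by more than 2-fold against each of the other 3 arrays. *Ikzf2* had a log2 ratio of -0.01 against DT- *hDTR* mice, and *Slc26a5* itself was not well above background on the DT+ *hDTR* array and was close to background on the others. The summed signals of 4 IHC markers were 6.68, 6.80 and 7.10 on the same 3 arrays and 6.61 after DT in *hDTR* mice. Within this sum *Tbx2* was higher in the depleted cochlea than on each other array (0.47, 0.57 and 0.52), whereas *Slc17a8*, *Otof* and *Slc7a14* were lower than on each, by less than 2-fold. In RNA of whole cochleae, fewer cells of a type and less RNA in each cell cannot be told apart.

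Of the 12 probes, 3 held the letters of the start of an EF-hand loop, the feature by which the buffers belong to one family, and these are shown for that reason. The capitals mark this match of 6 codons (18 bases), which begins with a codon of aspartate and ends with one of glycine. The match was made by letters alone, and the files do not place the probes in coding or untranslated parts. The sequences run 5′ to 3′ as the array files list them, and their positions are those of the array files on mouse build mm9, all on the minus strand. The *Ocm* probe lies at chr5:144785309-144785368, the *Calb2* probe at chr8:112678555-112678614 and the *S100a1* probe at chr3:90315191-90315250.
Ocm: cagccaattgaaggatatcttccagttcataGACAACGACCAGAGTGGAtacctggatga
Calb2: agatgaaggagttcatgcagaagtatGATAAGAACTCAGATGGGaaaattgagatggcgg
S100a1: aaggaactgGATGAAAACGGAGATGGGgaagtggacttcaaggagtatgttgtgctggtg

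The capital stretches of *Calb2* and *S100a1* shared 14 of 18 bases, while *Ocm* shared 9 with *Calb2* and 8 with *S100a1*. The pattern of this loop start was found on either strand in 69 of all 39429 probes (0.175%). The flanking letters of the 3 probes differ, and 0 probes of other genes held any run of 20 bases in common with any of the 12. The remaining 9 probes held no such loop start. The letters AATAAA, the usual signal for polyadenylation, occurred in 3 of the 12 probes (the brighter *Ocm* and *S100a1* probes and the weaker *Calb1* probe) and on either strand in 16.2% of all probes.

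*Ocm*, or β-parvalbumin, had a much lower signal in the depleted cochlea than on any other array. Its brighter probe, at chr5:144780676-144780735 on the minus strand, read 20.5 ± 2.05 in DT- WT, 18.5 ± 1.85 in DT+ WT, 20.3 ± 2.03 in DT- *hDTR* and 3.93 ± 0.393 in DT+ *hDTR* mice. The first 3 arrays did not differ beyond this error, and the fourth stood far below them. *Ocm* fell 5.18-fold against DT- *hDTR* mice (log2 ratio -2.37 ± 0.20), so that 19.3% of the signal remained. It fell 5.22-fold against DT- WT (-2.38) and 4.71-fold against DT+ WT mice (-2.24). The probe with the loop letters shown above read 5.06, 4.45, 4.98 and 0.863 on the 4 arrays in the same order. With this probe the folds were 5.77, 5.86 and 5.16, and 17.3% of the signal of DT- *hDTR* mice remained. The *Ocm* probes are farther apart in the genome than in the transcript, where they begin at bases 258 and 675, so they read separate parts of the mRNA and gave the same fall within their error. Relative to DT- WT mice, *Ocm* stood at -0.15 in DT+ WT and at -0.01 in DT- *hDTR* mice, both within the error of 0.20.

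**Figure D1:**
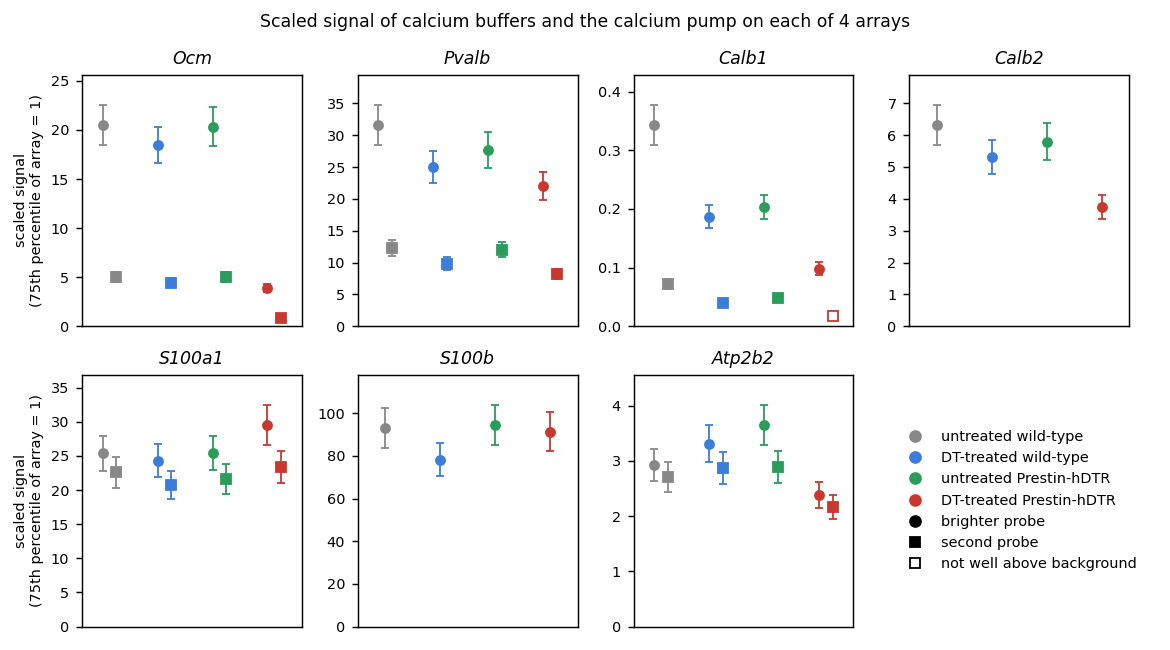
Scaled signal of each gene (y axis, linear from 0, 75th percentile of the array = 1) on the 4 arrays, with circles for the brighter probe, squares for the second probe, an open symbol for a signal not well above background, and bars for the error given by the array software. *Ocm* dropped from between 18.5 and 20.5 on 3 arrays to 3.93 on the DT+ *hDTR* array, while *S100b* read between 78.3 and 94.4 on all 4.

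*Pvalb* encodes parvalbumin, the relative of oncomodulin that IHCs and spiral ganglion neurons are known to hold. Its brighter probe (chr15:78021951-78022010, minus strand) read 31.6 ± 3.16 in DT- WT, 25.1 ± 2.51 in DT+ WT, 27.7 ± 2.77 in DT- *hDTR* and 21.9 ± 2.19 in DT+ *hDTR* mice. The depleted cochlea was lowest, but its bar overlapped that of DT+ WT mice. The log2 ratio was -0.33 ± 0.20 against DT- *hDTR* (1.26-fold lower), -0.53 against DT- WT and -0.19 against DT+ WT mice. The second probe gave -0.56, -0.59 and -0.27. All 6 values were below 2-fold. DT alone in wild-type mice gave the same value as DT in *Prestin*-*hDTR* mice with the brighter probe, -0.33 in each. With the second probe these values were -0.32 and -0.56, a difference of -0.23 ± 0.29.

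*Calb1* encodes calbindin, a buffer of hair cells and of many neurons. Its brighter probe (chr4:15835078-15835137, plus strand) read 0.343 ± 0.0345 in DT- WT, 0.187 ± 0.0193 in DT+ WT, 0.203 ± 0.0205 in DT- *hDTR* and 0.0979 ± 0.0110 in DT+ *hDTR* mice. The DT- WT array stood above all the others, and both other arrays without depletion were alike in the middle, a pattern that *Ocm* did not have. *Calb1* fell 2.08-fold against DT- *hDTR* (-1.05 ± 0.22) and 3.51-fold against DT- WT mice (-1.81), but 1.91-fold against DT+ WT mice (-0.93), which missed 2-fold. The first of these calls was lost with another background correction (normexp), at -0.89. The second *Calb1* probe (chr4:15833582-15833641) was not well above background on the DT+ *hDTR* array. Set against the lowest signal counted as well above background there, it was lower by at least 2.08-fold relative to DT- *hDTR*, 3.13-fold relative to DT- WT and 1.70-fold relative to DT+ WT mice. Among the 3 arrays without depletion, *Calb1* differed more than any of the other 6 genes. It was 1.84-fold lower after DT in wild-type mice (-0.88) and 1.69-fold lower in DT- *hDTR* than in DT- WT mice (-0.76).

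*Calb2* encodes calretinin, known from IHCs and part of the spiral ganglion neurons. Its probe, shown above, read 6.32 ± 0.632 in DT- WT, 5.32 ± 0.532 in DT+ WT, 5.79 ± 0.579 in DT- *hDTR* and 3.73 ± 0.373 in DT+ *hDTR* mice. The depleted cochlea lay below the other 3, whose bars overlapped. The log2 ratios were -0.63 ± 0.20 (1.55-fold lower), -0.76 (1.69-fold) and -0.51 (1.42-fold) against DT- *hDTR*, DT- WT and DT+ WT mice. None reached 2-fold. Relative to DT- WT mice, *Calb2* stood at -0.25 in DT+ WT and at -0.13 in DT- *hDTR* mice.

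*S100a1*, an S100 protein known from supporting cells of the organ of Corti, was not lower after depletion. Its brighter probe (chr3:90314959-90315018, minus strand) read 25.4 ± 2.54 in DT- WT, 24.3 ± 2.43 in DT+ WT, 25.4 ± 2.54 in DT- *hDTR* and 29.5 ± 2.95 in DT+ *hDTR* mice. The last array was the highest, with ratios of 0.21, 0.22 and 0.28 against the others, near the error of 0.20. The probe with the loop letters gave 0.11, 0.04 and 0.17, all within the error.

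*S100b*, the S100 protein of Schwann cells and other glia, stood within the range of the other arrays. Its probe (chr10:75723783-75723842, plus strand) read 93.2 ± 9.32 in DT- WT, 78.3 ± 7.83 in DT+ WT, 94.4 ± 9.44 in DT- *hDTR* and 91.5 ± 9.15 in DT+ *hDTR* mice. DT+ WT mice were lowest, and the other 3 arrays could not be ordered. The ratios of the depleted cochlea were -0.05 against DT- *hDTR*, -0.03 against DT- WT and 0.22 against DT+ WT mice, and the sign against DT- WT mice turned under 2 of 7 other settings.

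*Atp2b2* encodes PMCA2, the pump that clears calcium from hair bundles and whose loss causes deafness in mice. Its brighter probe (chr6:113698347-113698406, minus strand) read 2.93 ± 0.293 in DT- WT, 3.31 ± 0.331 in DT+ WT, 3.65 ± 0.365 in DT- *hDTR* and 2.38 ± 0.238 in DT+ *hDTR* mice. The depleted cochlea was lowest and came closest to DT- WT mice. The log2 ratio was -0.62 ± 0.20 (1.53-fold lower) against DT- *hDTR*, -0.30 (1.23-fold) against DT- WT and -0.48 (1.39-fold) against DT+ WT mice. The second probe (chr6:113695839-113695898) gave -0.41, -0.32 and -0.41. None of these reached 2-fold.

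Counted over the 7 genes, 2 fell by 2-fold or more between the *hDTR* arrays (*Ocm* and *Calb1*) and 0 rose, where 1.42% of the 21438 genes compared were lower by this measure and 2.74% higher. Against DT- WT mice the same pair was lower, beside 2.06% of all genes. Against DT+ WT mice *Ocm* alone was lower, beside 1.95% of all genes. *Ocm* was thus the 1 member lowered against each of the other 3 arrays, which held for 0.255% of all genes (56 of 21933). In the comparisons without depletion 0 of the 7 genes were lower by 2-fold, both for DT+ against DT- WT mice, where 1.13% of all genes were lower, and for DT- *hDTR* against DT- WT mice, where 2.45% were. The DT+ *hDTR* array gave the lowest of the 4 values for 5 of the 7 genes (*Ocm*, *Pvalb*, *Calb1*, *Calb2* and *Atp2b2*), beside 34.9% of all genes well above background on every array, and the highest for *S100a1*, beside 33.5%. All 3 comparisons of the depleted cochlea share its single array, so they do not repeat one another independently.

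**Figure D2:**
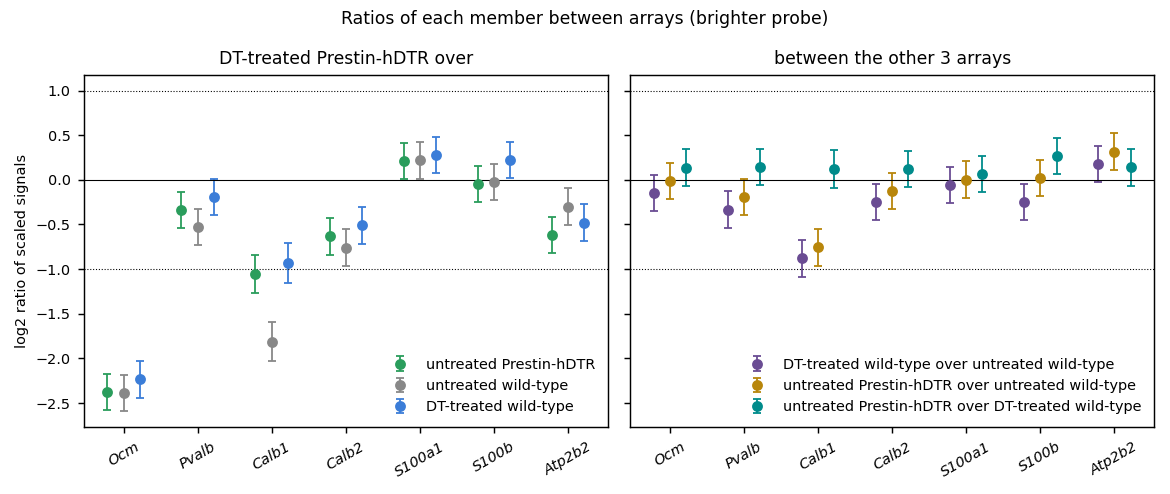
Log2 ratios of the scaled signals (y axis, brighter probe) of each gene between arrays, for the DT+ *hDTR* array over each of the others (left) and between the other 3 arrays (right), with bars for the error given by the array software and dotted lines at 2-fold. *Ocm* lies between -2.38 and -2.24 on the left and within 0.15 of 0 on the right, while *Calb1* lies at -0.88 and -0.76 in the comparisons with DT- WT mice on the right.

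The fall of *Ocm* was then set against that of each buffer within the same pair of arrays, which removes any difference in scaling. Between the *Prestin*-*hDTR* arrays, *Ocm* fell 4.11-fold further than *Pvalb* (difference of log2 ratios -2.04 ± 0.29). It fell 3.34-fold further than *Calb2* (-1.74 ± 0.29) and 2.49-fold further than *Calb1* (-1.32 ± 0.30). *Pvalb* and *Calb2*, known from IHCs and spiral ganglion neurons, thus kept much more of their signal than *Ocm*. *Calb1*, a buffer of hair cells and many neurons, kept less of its signal than either. The difference was 3.38-fold for the pump *Atp2b2* (-1.76 ± 0.29), 5.02-fold for *S100b* (-2.33 ± 0.29) and 6.01-fold for *S100a1* (-2.59 ± 0.29). Against DT+ WT mice the differences ran from -1.30 for *Calb1* to -2.51 for *S100a1*. Against DT- WT mice the difference from *Calb1* was -0.57 ± 0.30 (1.49-fold), the smallest of all, and the others ran from -1.63 for *Calb2* to -2.60 for *S100a1*.

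The median ratio of the 6 members other than *Ocm* was -0.48 between the *hDTR* arrays, -0.41 against DT- WT and -0.34 against DT+ WT mice. The medians of all genes were -0.01, -0.03 and 0.01, with SDs of 0.44, 0.44 and 0.40 over genes. *Ocm* lay far in the lower tail of this distribution. Of 20005 genes with a ratio between the *hDTR* arrays, 30 had a lower one than *Ocm*. Against DT- WT mice 21 of 20225 genes were lower, and against DT+ WT mice 41 of 19507 were, where a gene close to background entered with its bound. The *Calb2* ratio between the *hDTR* arrays was at the lowest 3.45% of genes and that of *Calb1* at the lowest 1.34%.

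**Figure D3:**
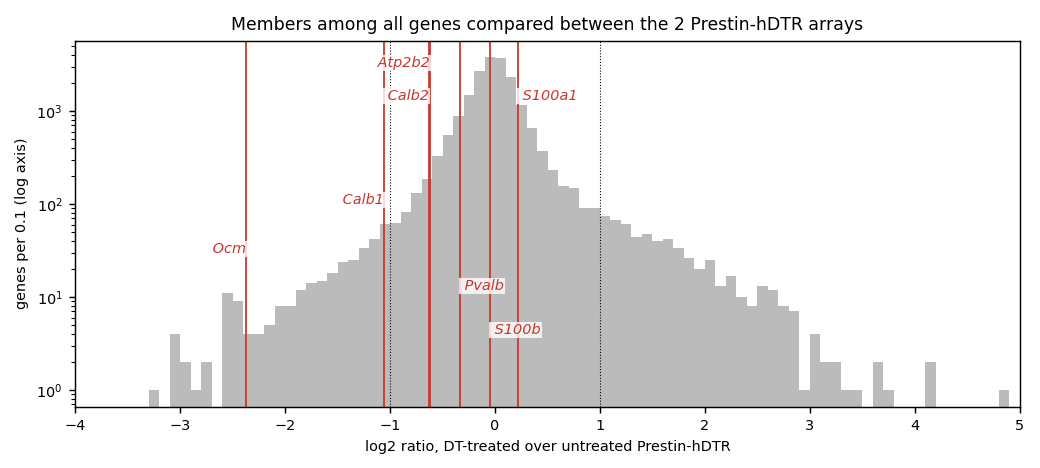
Number of genes per 0.1 of log2 ratio (y axis, log scale) for DT+ over DT- *hDTR* mice, with the 7 genes as red lines and 2-fold as dotted lines. *Ocm* at -2.37 lies in the lower tail with 30 of 20005 genes below it, and *Calb1* at -1.05 lies just past the 2-fold line.

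Both genotypes had a treated and an untreated array, so the effect of DT could be set side by side in mice with and without the receptor. For *Ocm* it was -0.15 in wild-type and -2.37 in *Prestin*-*hDTR* mice, a difference of -2.22 ± 0.29. For *Calb1* it was -0.88 and -1.05, a difference of -0.18 ± 0.30, which was smaller than its error. For *Calb2* the effects were -0.25 and -0.63, a difference of -0.38 ± 0.29. For *Atp2b2* the effects were 0.18 in wild-type, within its error of 0.20, and -0.62 in *Prestin*-*hDTR* mice. Their difference (-0.79 ± 0.29) was beyond its error, but the sign in wild-type mice was not settled. The second *Atp2b2* probe gave 0.09 and -0.41. With 1 array for each group these differences could not be tested.

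The wider set of calcium-handling genes was described by the same measure. Among 12 measured members of a list of 13 other S100 genes, 11 had a ratio above 0 between the *hDTR* arrays. The median of the 12 was 0.58, where that of all genes was -0.01. By 2-fold, 1 rose and 0 fell, beside 2.74% and 1.42% of all genes. The riser was *S100z*, which was well above background on the depleted array alone and at least 3.73-fold higher. The software error of this log2 ratio was large, at 1.46. Against DT- WT and DT+ WT mice the bounds were 2.70- and 1.98-fold. *S100a6* was higher against all 3 other arrays (0.74, 0.71 and 0.97), as were *S100a11* (0.69, 0.60 and 0.54) and *S100a13* (0.50, 0.52 and 0.60), but none reached 2-fold. *S100a8* and *S100a9*, which form calprotectin of neutrophils, did not keep their direction. *S100a8* had a ratio of 0.75 against DT- *hDTR* but -0.86 against DT- WT and -1.52 against DT+ WT mice. The neutrophil markers *Ngp* and *Camp* moved with them, at 0.71 and 0.61, then -1.17 and -1.40, then -2.00 for both. The part of these cells in the S100 values was not tested.

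Of 27 other EF-hand buffers and sensors, 25 were measured and 24 had a ratio between the *hDTR* arrays, with a median of -0.05. By 2-fold, 1 rose and 1 fell, beside 2.74% and 1.42% of all genes. *Cabp7* rose 2.52-fold from close to background. *Scgn* was at least 2.01-fold lower and was well above background on the DT- *hDTR* array alone. *Cabp2*, a regulator of hair cell calcium channels, was lower against all 3 arrays but short of 2-fold (-0.92, -0.61 and -0.81). *Ncs1*, a neuronal calcium sensor, was lower by less (-0.55, -0.55 and -0.38). *Cabp5* was 1.44-fold lower than in DT- *hDTR* mice, but 2.40-fold lower than in DT- WT and 2.05-fold lower than in DT+ WT mice.

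Of 12 other plasma membrane calcium pumps and exchangers, 11 were measured and 10 had a ratio between the *hDTR* arrays, with a median of -0.12. The ratios of the sister pumps of *Atp2b2* were 0.21 for *Atp2b1*, -0.36 for *Atp2b3* and -0.07 for *Atp2b4*, all short of 2-fold. The sodium/calcium exchanger gene *Slc8a2* was the exception and fell by 2-fold or more against each of the other 3 arrays, as did 0.255% of all genes. Its ratios were -1.40 ± 0.21 against DT- *hDTR* (2.64-fold), -1.24 against DT- WT (2.36-fold) and -1.33 against DT+ WT mice (2.52-fold). Its fall was more than that of *Atp2b2* and less than that of *Ocm*. *Slc8a1*, the cardiac form, was well above background on the DT- *hDTR* array alone, and no fold can be given.

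All 22 measured genes of a list of 23 for store and mitochondrial calcium transport differed by less than 2-fold, with a median of 0.04. Most genes did so, since 1.42% of all genes were lower and 2.74% higher by 2-fold or more. Of 15 measured voltage-gated calcium channel subunits, 13 had a ratio below 0. The median of the 15 was -0.14, where that of all genes was -0.01. Beside 1.42% of all genes, 1 of the 15 fell by 2-fold or more. This was *Cacna2d4*, which was lower by at least 3.72-fold relative to DT- *hDTR* and by at least 3.21-fold relative to DT+ WT mice, and by at least 1.102-fold relative to DT- WT mice, since it was not well above background in the depleted cochlea. *Cacna1d*, which encodes the main calcium channel of IHCs, had a ratio of -0.15.

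The cell type markers place these values beside the makeup of the RNA. Between the *Prestin*-*hDTR* arrays the median ratio was -1.69 for 6 OHC markers, -0.65 for 5 markers of both hair cell types and -0.38 for 4 IHC markers. Among the OHC markers *Strc* was at -3.10, *Chrna10* at -2.93 and *Chrna9* at -2.77, all lower than *Ocm*. Of the IHC markers, *Otof*, a calcium sensor of transmitter release, was at -0.68, *Slc17a8* at -0.41, *Slc7a14* at -0.36 and *Tbx2* at 0.47. The ratios of *Calb2* and *Pvalb* lay in the range of these IHC markers, but so did those of *Atp2b2*, *S100b* and *S100a1*. The range reaches above 0 through *Tbx2* alone. Of the markers of both hair cell types, *Gfi1* (-2.08) and *Pou4f3* (-1.56) fell by 2-fold or more. *Espn* (-0.65) and *Myo7a* (-0.45) were lower by less, and *Myo6* was at 0.11. Against DT- WT mice the ratio of *Gfi1* was -1.03, since its signal was lower there (0.791) than in DT- *hDTR* mice (1.64). The 6 neuron markers had a median of -0.18, and their summed signal was 150.0 in DT- WT, 127 in DT+ WT, 138 in DT- *hDTR* and 121 in DT+ *hDTR* mice. *Pvalb* and this sum thus had the same order over the 4 arrays, as did *Ocm*, *Calb1* and *Calb2*. Single neuron markers did not all have it. *Prph* read 0.212, 0.125, 0.141 and 0.219 in DT- WT, DT+ WT, DT- *hDTR* and DT+ *hDTR* mice, and *Tubb3* read 7.18, 6.42, 6.79 and 6.44. The part of neurons in the *Pvalb* values was not tested.

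Medians were 0.10 for 5 Schwann cell markers, beside -0.05 for *S100b*, and 0.04 for 6 supporting cell markers, beside 0.21 for *S100a1*. Since parvalbumin is abundant in fast muscle, 8 muscle markers were examined. Of these, *Ckm* and *Actn3* were not well above background on any array, and the summed signal of the others was 1.53, 1.18, 1.34 and 1.102 on the 4 arrays in the order given above. Their median ratio was -0.17 over the 4 that had one. Most of each sum came from *Pygm*, whose signals were 1.22, 0.961, 1.05 and 0.815. *Tnni2*, a troponin of fast muscle, instead read 0.160, 0.117, 0.122 and 0.162, with no fall in the depleted cochlea. The part of muscle in the *Pvalb* values was not tested. Cartilage (0.09), erythroid (0.21) and neutrophil markers (0.70) completed the lists. *Matn1* of cartilage, which was dim (0.142 at its highest), rose against each of the other 3 arrays, by 2.52-, 2.64- and 2.33-fold. The other cartilage markers did not follow it. Between the *hDTR* arrays *Col2a1* was at 0.28, *Acan* at -0.18 and *Comp* at -0.09. *Comp* was also lower than in DT- WT (-0.63) and DT+ WT mice (-0.67).

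**Figure D4:**
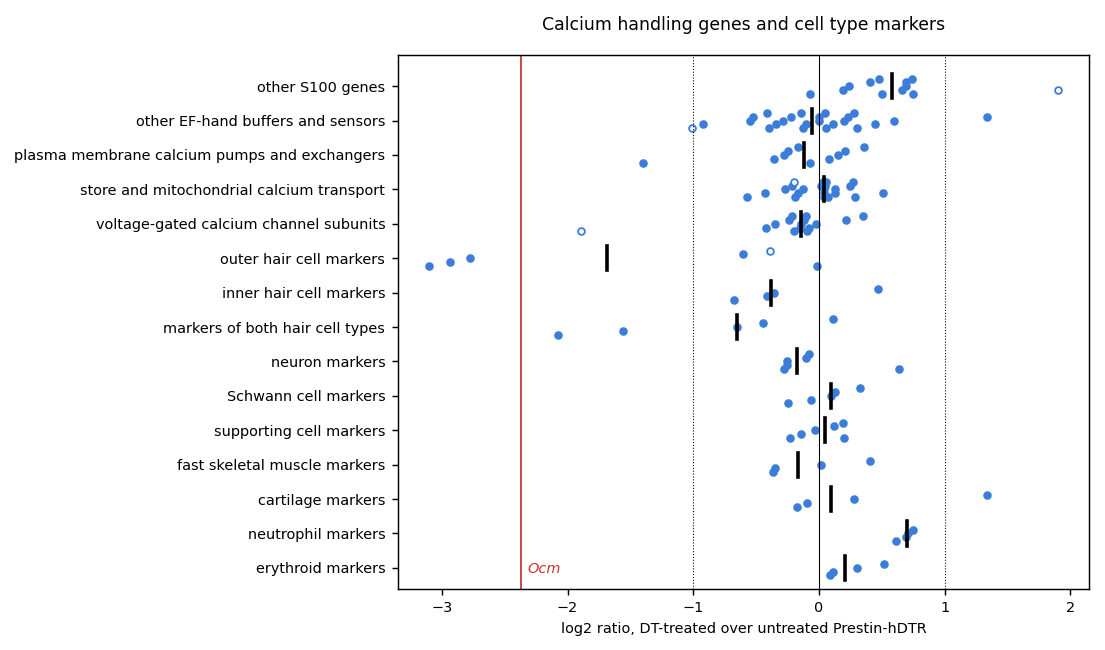
Log2 ratios of DT+ over DT- *hDTR* mice (x axis) for the genes of 15 lists (rows), with a point for each gene, an open point for a bound where 1 side was not well above background, black bars for the list medians, dotted lines at 2-fold and a red line at the ratio of *Ocm*. *Strc*, *Chrna10* and *Chrna9* of the OHC markers are the points left of *Ocm*, and *Slc8a2* at -1.40 is the lowest measured point of the calcium-handling lists that is not a bound. The median of the other S100 genes lies at 0.58.

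Finally, genes were ranked by how closely their pattern over the 4 arrays followed that of *Ocm*. The measure was the distance between log2 values after the mean of each gene was removed, among 15676 genes with a current symbol that were well above background on at least 3 arrays. With 4 arrays, of which 1 stood apart, this is a description and carries no p-value. The 5 nearest were *Pinlyp* (distance 0.09), *Ppp1r17* (0.33), *Art1* (0.42), *Chrna9* (0.45) and *Gm5737* (0.51). *Ppp1r17* was 3.93-fold and *Chrna9*, a subunit of the acetylcholine receptor through which efferent nerves act on OHCs, 6.83-fold lower than in DT- *hDTR* mice. *Pinlyp*, *Art1* and *Gm5737* were not well above background on the depleted array, so that their distances and ranks rest on a signal that was not measured there, and they were lower by at least 5.58-, 3.64- and 3.30-fold. Of the other members, *Calb1* came nearest at rank 53 (distance 1.101), followed by *Calb2* at rank 312, *Atp2b2* at rank 726 and *Pvalb* at rank 1220. *S100b* and *S100a1* were at ranks 9364 and 13341.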

How the data were processed

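Cochlear RNA of 4 groups was measured with 1 Agilent array each, all on 1 slide. The authors deposited the scanner output of Agilent Feature Extraction 11.5.1.1, in which the intensity of a spot is linear, with background subtracted and no scaling between arrays. The authors also deposited a ratio of that intensity to 1 constant per array, which served as an alternative only. Control spots (1377 of 44397) and the 149 to 228 outlier spots per array were left out, repeated spots were averaged to probes, and signals were expressed relative to the 75th percentile of probes per array (2728 to 3162) on the log2 scale. A software flag counted where more than 0.5 of a probe's spots carried it. A probe not well above background was raised to the lowest signal that was, which makes its fold a lower bound, and no fold is given where that bound lay above the other array. For each gene, the brightest probe by its mean was taken, if 1 or more arrays measured it well above background. The number of arrays limits the precision, and no test was made.

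The names were those of the array files, of which 29803 were current symbols of the RefSeq gene table and 1769 were updated through a synonym, while 7857 were kept. Positions are those of the files (mm9), which do not say whether a probe lies in a coding or an untranslated part. The genes named are the 7 members, genes of 15 lists (141 distinct names) that changed by 2-fold or more against each other array or were extremes, and the 5 genes nearest to *Ocm* in pattern. Further list genes (other S100 genes, *Cabp2*, *Ncs1*, *Cacna1d*, the sister pumps and single markers) were named after their values were seen. The members and the lists were chosen with earlier results of these data known. Alternatives changed the scaling, the background correction (normexp, offset 50), the source of the values, the floor, the probe of a gene, the outlier spots, the filter and the fold. The steps were tested on simulated data. Tools were limma 3.58.1 (R 4.3.3), numpy 2.4.6, pandas 2.3.3 and matplotlib 3.10.9 (Python 3.11.15). Other experiments of the study were not used here.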

Additional observations from a re-analysis of the deposited data

Results flagged for a closer look

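The ratios of DT-treated over untreated mice had opposite signs in the genotypes for *Atp2b2* and *S100a1*, with 1 array in each group. For *Atp2b2* the log2 ratio was 0.18 in wild-type mice, within its error of 0.20, and -0.62 in *Prestin*-*hDTR* mice, a difference of -0.79. *S100a1* had effects of -0.06 in wild-type and 0.21 in *Prestin*-*hDTR* mice, a difference of 0.27, which was less than its error of 0.29 as the array software gives it. Neither difference was tested.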

How the results depend on the processing

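Over 11 results, 80 of 82 values under other settings stayed within the error of the software (0.20 for a log2 ratio and 0.29 for a difference of ratios), and 0 turned in direction. Part of the 82 could not move, so this count says less than its size. A scaling by 1 constant per array cancels in a difference between *Ocm* and another gene. Removing the floor left every value as it was, since no brighter probe of the 7 genes had been raised to it. The number of the 7 genes lowered between the *Prestin*-*hDTR* arrays was 2, but 1 with normexp background correction, where *Calb1* stood at -0.89, and 4 at 1.5-fold in place of 2-fold. The *Ocm* ratio between these arrays ranged from -2.45 to -2.36. Against the mean of the other 3 arrays (-2.33), it ranged from -2.38 to -2.30 when 1 of the 3 was left out. Other scalings moved the median of all probes by at most 0.06. No paired analysis was possible because each group had 1 array. The single array of each group limits every value, and the *Calb1* probes are limited by signal as well. The second was not well above background on the depleted array. The brighter one was dim, though well above background on all 4 arrays.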
